A study of Mus musculus with 4 samples.

Results

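The genes of the mouse major histocompatibility complex (MHC) on chromosome 17 were taken from the GENCODE annotation of NCBIM37/mm9 as every gene whose symbol begins with H2-. This gave 42 gene entries with 41 symbols, because H2-Q2 stands in the annotation under 2 identifiers, out of 37252 genes on the chromosomes that carried listed peaks. Sites of CTCF, read from the deposited peak lists, were counted when they met a gene body extended by 50 kb on either side by at least 1 bp. The rule did not use any measured value.

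MHC class I molecules are carried by nearly all nucleated cells and show peptides from inside the cell to CD8 T cells, whereas class II molecules are carried mainly by antigen-presenting cells and show peptides from ingested material to CD4 T cells. In the liver, hepatocytes carry class I, and class II is found mainly on macrophages, dendritic cells and sinusoidal endothelium. CTCF is a zinc finger protein that binds a long, directional DNA motif, and pairs of its sites hold the bases of many chromatin loops. In the mouse the MHC runs from the class I gene H2-K1 through the class II genes and a stretch of unrelated genes called class III to the class I genes of the D, Q, T and M groups.

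CTCF binding was measured by ChIP-seq in livers of male wild type C57BL/6 mice. From the age of 8 weeks the mice were kept for 2 weeks under light and dark phases of 12 h each and fed ad libitum. Livers were taken at zeitgeber time (ZT) 0, when the lights came on, and at ZT12, when they went off, with 2 biological replicates at each time. The deposited data are 1 list of peak positions per time point, covering both replicates, with no score, no height and no value per replicate. The spread between replicates and the sequencing depth are therefore unknown, no test was made between the time points, and a site missing from a list may still have been bound, at a level under the caller's threshold or as a peak dropped by a later filter on the motif or on the replicates. Together the lists hold far fewer CTCF sites than the study reports, so the counts and shares below describe the deposited lists only. The lists hold no expression values, so the tissue could not be checked against marker genes.

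Around the H2- genes 30 sites were listed at ZT0 and 27 at ZT12. Of the 30 ZT0 sites, 23 (76.7%, 95% Wilson interval 59.1 to 88.2) overlapped a ZT12 site by at least 1 bp, beside 5680 of all 10113 ZT0 sites (56.2%). In turn, 23 of the 27 ZT12 sites (85.2%, interval 67.5 to 94.1) overlapped a ZT0 site, beside 5686 of all 6799 ZT12 sites (83.6%). These intervals cover counting error only. Of the sites wider than the median of their list, 14 of 17 at ZT0 and 11 of 13 at ZT12 overlapped a site of any width. The shares were lower when the partner also had to pass this filter, with 7 of 17 ZT0 sites (41.2%) and 7 of 13 ZT12 sites (53.8%). Over all sites kept in this way they were 44.8% and 66.8%. Joined by overlap, the sites formed 34 separate positions, of which 23 were listed at both times, 7 at ZT0 only and 4 at ZT12 only.

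Within 50 kb of the gene body a ZT0 site was listed for 30 of the 42 H2- entries (71.4%) and a ZT12 site for 32 (76.2%). Over the whole annotation, 49.0% of genes had a ZT0 site within that distance and 39.8% had a ZT12 site, and among the 1576 genes of chromosome 17 the shares were 64.4% and 55.5%. Of the 36 protein-coding H2- entries, 25 were within reach at ZT0 and 26 at ZT12, beside 58.2% and 48.1% of all protein-coding genes. All 10 class II genes were within reach of a site at both times, as were H2-Ke2 and H2-Ke6, which lie in the region but encode a prefoldin subunit and a steroid dehydrogenase and not MHC molecules. Of the 30 class I entries, 18 were within reach at ZT0 and 20 at ZT12. Neighbouring H2- genes share sites, since a site had a median of 3 H2- genes within 50 kb and at most 5, so the genes are not independent of each other.

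The extended gene bodies covered 2.05 Mb and held 14.6 ZT0 sites and 13.1 ZT12 sites per Mb. The rest of chromosome 17 held 4.93 and 3.39 per Mb, and all chromosomes together 3.83 and 2.58. The class III stretch, 918 kb of gene-dense sequence between the class II genes and H2-D1 with 99 annotated genes, held 17.4 ZT0 sites and 9.80 ZT12 sites per Mb. A density above that of the chromosome was thus also seen in the neighbouring gene-dense sequence without H2- genes. Of its 16 ZT0 sites, 6 were shared (37.5%, interval 18.5 to 61.4), while 6 of its 9 ZT12 sites were (66.7%, interval 35.4 to 87.9). Some of these sites lie within 50 kb of an H2- gene, and away from those windows 3 of 12 ZT0 sites and 3 of 6 ZT12 sites were shared.

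**Figure D1:**
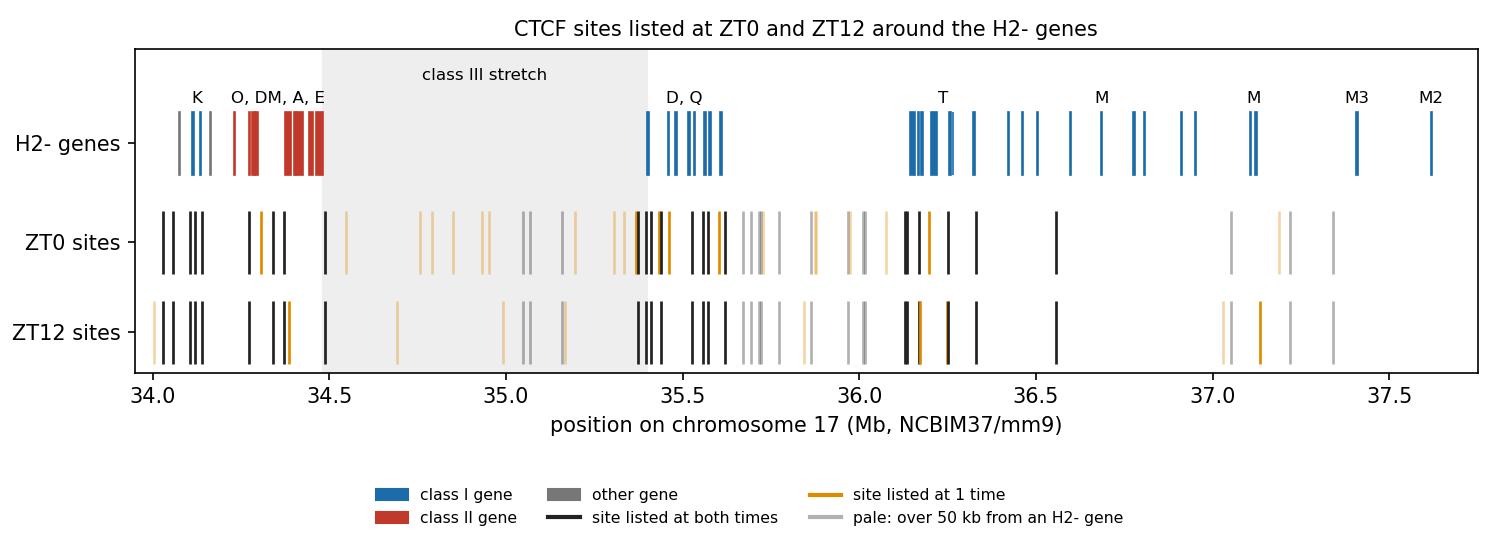
Map of chromosome 17 (x axis, Mb) with the H2- genes in the upper row and the listed CTCF sites of ZT0 and ZT12 in the rows under it; each vertical bar is a gene or a site, coloured by class or by presence in the other list, and pale bars lie over 50 kb from any H2- gene. The 29 ZT0 sites drawn and the 27 ZT12 sites within reach crowd at the K, class II, D, Q and T genes, and the M genes are nearly bare of sites.

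At the centromere-proximal end, 2 sites were nearest to H2-Ke2 and were listed at both times. The site at chr17:34027643-34028125 lay between genes, 0.278 kb from a start of Kifc1, which encodes a kinesin motor, with BC033916 on its other side. It was also the outermost site within reach, 47.6 kb from the H2-Ke2 body. The site at chr17:34057733-34058022 lay in an intron of Tapbp, which encodes tapasin, the protein that holds class I molecules at the peptide transporter, and was 404 bp from an annotated transcript start of that gene.

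The first class I stretch, with the pseudogene H2-K2 and the classical class I gene H2-K1, had 3 sites, and all 3 were listed at both times. They lay between genes. The outer sites were chr17:34105473-34106116, between Vps52 and H2-K2, and chr17:34140426-34140692, between H2-K1 and Ring1, as listed at ZT0. The site between them, chr17:34119134-34119440, had the annotated gene Gm4152 on its left and H2-K1 on its right. The outer site near H2-K2 had the highest motif score of the stretch, 20.6, and it changed most in width, from 644 bp at ZT0 to 220 bp at ZT12. H2-K1 is read from the minus strand, and its nearest site lay upstream of the transcription start at both times, by 3.28 kb at ZT0 and by 3.31 kb at ZT12. No site was listed inside the H2-K2 or H2-K1 body.

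The class II stretch ran over 252 kb from H2-Oa to the pseudogene H2-Ea-ps and held 10 genes. It had 6 sites at ZT0 and 5 at ZT12, at 7 positions, of which 4 were listed at both times, 2 at ZT0 only and 1 at ZT12 only. At ZT0 4 of 6 sites were shared (66.7%, interval 30 to 90.3) and at ZT12 4 of 5 (80.0%, interval 37.6 to 96.4). With so few sites these intervals include the shares of all listed sites.

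H2-DMa, H2-DMb1 and H2-DMb2 encode the chains of H2-DM, which exchanges peptides on class II molecules, and H2-Oa and H2-Ob encode H2-O, which restrains H2-DM. The proximal outer site of the stretch lay over the start of H2-DMa at chr17:34272103-34272607 at ZT0 and chr17:34272104-34272609 at ZT12. Its midpoint was 0.228 kb inside the gene, in an exon annotated as untranslated, and it was nearly as wide at ZT0 (505 bp) as at ZT12 (506 bp). This made H2-DMa the only class II gene with a site in its body at both times, and H2-Oa, 39.9 kb away, had this site alone within 50 kb. A ZT0-only site at chr17:34307726-34308053 lay between H2-DMb1, 10.7 kb to its left, and Psmb9, 11.0 kb to its right.

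Between the H2-DM and H2-Ob genes lie Psmb9, Tap1, Psmb8 and Tap2, which serve the class I pathway: the Tap proteins form the transporter that moves peptides into the endoplasmic reticulum, and the Psmb proteins are immunoproteasome subunits. A site listed at both times lay in Tap2, at chr17:34341271-34341566 at ZT0 and chr17:34341328-34341558 at ZT12, in an exon annotated as untranslated and 94 bp from an annotated transcript start. Upstream of H2-Ob a site listed at both times lay between Tap2 and H2-Ob, 3.73 kb from the H2-Ob start at ZT0, at chr17:34371869-34372363. This site had the highest motif score of the class II stretch, 23.4. Inside H2-Ob, in an intron, a site at chr17:34386859-34387104 was listed at ZT12 only.

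The classical class II molecules are I-A, encoded by H2-Aa and H2-Ab1, and I-E, whose beta chain is encoded by H2-Eb1 and whose alpha chain gene is the pseudogene H2-Ea-ps in this strain. Neither H2-Ab1 nor H2-Aa had a site in its body. From the H2-Ab1 start the nearest site was 28.04 kb upstream at ZT0 and 13.2 kb upstream at ZT12, the latter being the ZT12-only site in H2-Ob. At ZT12 the nearest site was 37.8 kb downstream of the H2-Aa start and 43.7 kb downstream of the H2-Eb1 start. The latter, the distal outer site of the stretch, lay between H2-Ea-ps and Btnl2 at chr17:34486457-34486841 at ZT0 and chr17:34486441-34486679 at ZT12. From the start of H2-Ab1 to the end of H2-Eb2, the ZT12 list thus held no site.

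**Figure D2:**
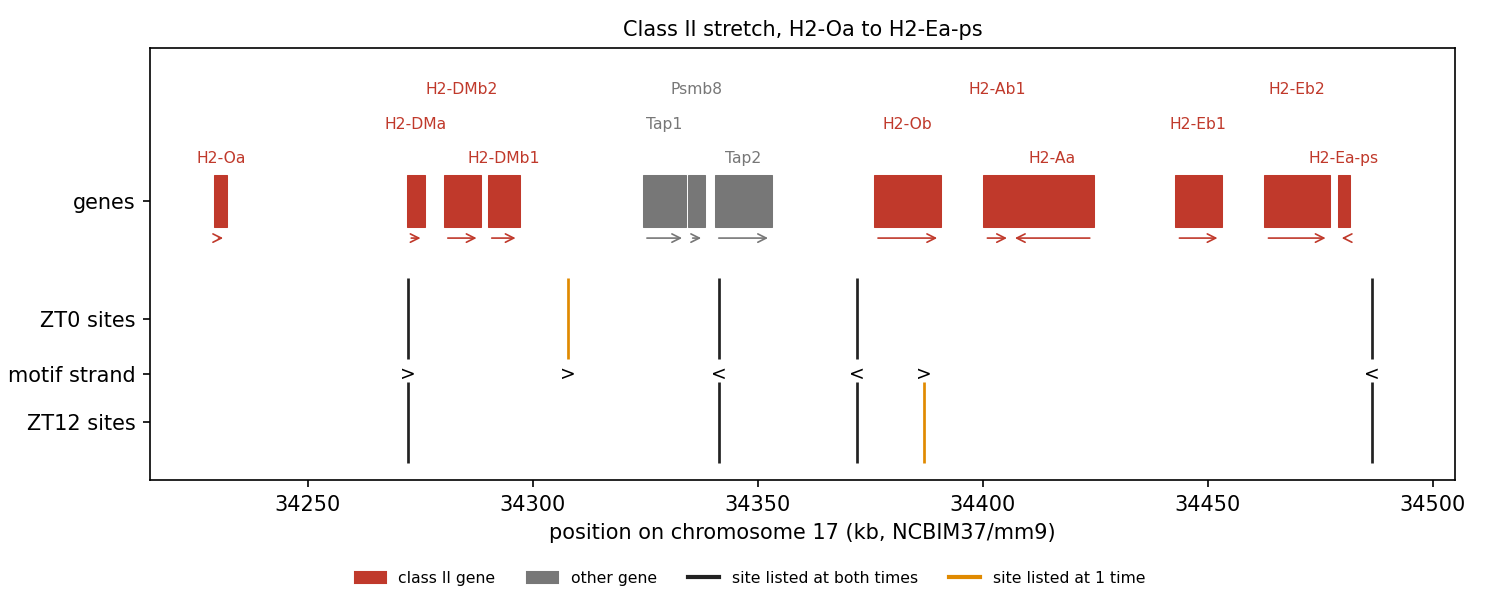
Map of the class II stretch on chromosome 17 (x axis, kb), with class II genes and the class I pathway genes Tap1, Psmb8 and Tap2 in the upper row, arrows for the direction of transcription, bars for the listed CTCF sites at each time and, between the rows of sites, the strand of the best motif match at each position (> plus, < minus). Of the 6 positions drawn, 4 were listed at both times; the 2 others lay near H2-DMb1 and in H2-Ob.

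Every class II position held a match to the CTCF motif. The motif was taken as a weight matrix of 19 bp built from the listed sites on the other chromosomes, whose top base at each position reads TGGCCACCAGGGGGCGCTA, and a match was a score of at least 8.25 bits on either strand. The sequences of 6 positions are given so that those listed at 1 time only can be set against those listed at both. They are written from 5′ to 3′ on the strand of the match, with the match in capitals, from NCBIM37/mm9. For the positions at H2-DMa and Tap2, where an untranslated exon is near, only the match is given.
H2-DMa, both times, chr17:34272361-34272379, plus strand: CTTCCACCAGGGGGCGGAG
H2-DMb1 to Psmb9, ZT0 only, chr17:34307847-34307967, plus strand: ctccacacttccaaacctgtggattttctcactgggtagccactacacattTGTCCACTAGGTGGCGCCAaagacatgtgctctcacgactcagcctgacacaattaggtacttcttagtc
Tap2, both times, chr17:34341394-34341412, minus strand: CCGCCAGCAGATGGCGCCT
upstream of H2-Ob, both times, chr17:34372060-34372180, minus strand: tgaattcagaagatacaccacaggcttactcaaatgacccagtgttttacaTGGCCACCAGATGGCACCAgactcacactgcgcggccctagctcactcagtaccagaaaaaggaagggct
in H2-Ob, ZT12 only, chr17:34386955-34387075, plus strand: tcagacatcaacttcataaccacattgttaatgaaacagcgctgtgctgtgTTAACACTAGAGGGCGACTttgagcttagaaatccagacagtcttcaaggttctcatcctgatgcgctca
H2-Ea-ps to Btnl2, both times, chr17:34486505-34486625, minus strand: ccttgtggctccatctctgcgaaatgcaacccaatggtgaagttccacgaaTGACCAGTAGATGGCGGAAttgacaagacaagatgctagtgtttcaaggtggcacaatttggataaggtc
The 4 positions listed at both times scored 19.03, 18.4, 23.4 and 19.9 bits. The ZT0-only position near H2-DMb1 scored 22.6, and the ZT12-only position in H2-Ob scored 14.2. The score near H2-DMb1 thus lay among those of positions listed at both times, and the score in H2-Ob lay under them.

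The next class I stretch ran over 212 kb from H2-D1 to H2-Q10 with 8 gene entries. Counted over the 0.312 Mb of these genes extended by 50 kb, it was the densest of the MHC stretches. It had 12 sites at ZT0 (38.5 per Mb) and 8 at ZT12 (25.7 per Mb). All 8 ZT12 sites were shared, and of the 12 ZT0 sites 8 were (66.7%, interval 39.1 to 86.2). Of the 7 ZT0-only sites around the H2- genes, 4 lay here, and no ZT12-only site did. H2-D1 is the other classical class I gene of the strain. The Q genes encode nonclassical class I molecules, among them Qa-2 from H2-Q7 and the secreted molecule of H2-Q10, which is made mainly in the liver.

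Near H2-D1 the proximal outer site was chr17:35368915-35369450, listed at ZT0 only in an intron of Nfkbil1, and at ZT12 the outermost site was chr17:35373307-35373587, inside Atp6v1g2, 60 bp from an annotated transcript start of that gene, and also listed at ZT0. Both genes belong to the class III side of H2-D1. The site nearest to the H2-D1 start lay upstream of it at both times, by 4.47 kb at ZT0 and by 4.38 kb at ZT12. It stood between CR974466.1 and H2-D1 at chr17:35395021-35395398 at ZT0 and chr17:35395178-35395411 at ZT12. The best match of the ZT0 interval, at chr17:35395106-35395124, scored 10.5 and lay outside the ZT12 interval. The best match of the ZT12 interval was another sequence, at chr17:35395278-35395296, and scored 9.35. Each score was the lowest of the stretch at its time. A further site listed at both times lay 7.47 kb beyond the end of H2-D1, with Gm18733 on its other side. H2-D1 had 6 ZT0 sites and 4 ZT12 sites within 50 kb, the most of any H2- gene at ZT0 and equal to the most at ZT12.

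Farther along, a ZT0-only site at chr17:35432810-35433115 and a site listed at both times at chr17:35438698-35439195 lay between Gm18733 and Gm18734. The latter had the highest motif score of the stretch, 20.4. A ZT0-only site at chr17:35462150-35462403 lay just 0.106 kb past the end of the proximal H2-Q2 entry, with Gm8741 on its other side. Upstream of H2-Q8, H2-Q6 and H2-Q7 a site was listed at both times, 4.13, 4.18 and 4.10 kb from the respective start at ZT0. Upstream of H2-Q10 the site, chr17:35602675-35602978, stood 4.21 kb from the start in an exon of the noncoding gene Gm20527 and was listed at ZT0 only. At ZT12 the site nearest to the H2-Q10 start was 14.1 kb downstream. This was the distal outer site of the stretch, between Gm20419 and Pou5f1 at chr17:35621021-35621291 at ZT0 and chr17:35621028-35621304 at ZT12. No D or Q gene had a site in its body at either time.

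**Figure D3:**
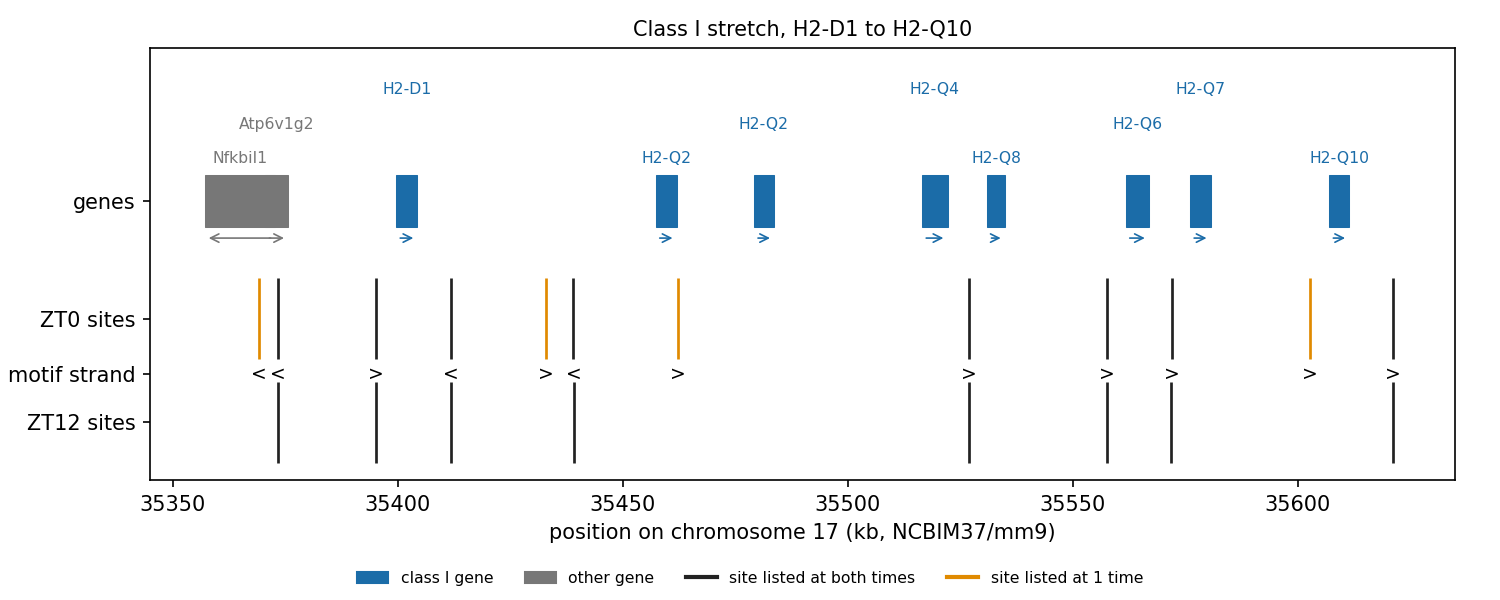
Map of the class I stretch from H2-D1 to H2-Q10 on chromosome 17 (x axis, kb), with class I genes and the neighbours Nfkbil1 and Atp6v1g2 in the upper row, arrows for the direction of transcription, bars for the listed CTCF sites at each time and the strand of the best motif match at each position (> plus, < minus). All 8 ZT12 sites have a ZT0 partner, and 4 positions were listed at ZT0 only; upstream of H2-Q8, H2-Q6, H2-Q7 and H2-Q10 the match points the same way as the gene.

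The sites of the K and Q genes shared a sequence. The best match at 6 positions was the identical 19 bases, and at the position upstream of H2-Q6 it differed by 1 substitution, T18C, counted from 1 at the 5′ end of the match. The likeness was noticed after the sites had been listed, and it is given as a description. Over 301 bp around the match, all 21 pairs among these 7 positions aligned over 285 to 301 bp with an identity of 92.6% to 97.7%. The match lay upstream of the nearest H2- start in every case, 3.57 kb for H2-K2, 3.30 kb for H2-K1, 4.14 kb for H2-Q8, 4.18 kb for H2-Q6, 4.11 kb for H2-Q7 and 4.21 kb for H2-Q10, and 24.4 kb for the proximal H2-Q2 entry. It lay on the same strand as that gene at all 7. The genes on opposite strands, H2-K1 on minus and the Q genes on plus, therefore carried the match in the same direction relative to their own transcription. The sequences show this likeness directly and are written from 5′ to 3′ on the strand of the match, with the match in capitals.
H2-K2, both times, chr17:34119271-34119331, minus strand: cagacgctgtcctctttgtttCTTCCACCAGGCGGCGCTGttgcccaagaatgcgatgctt
H2-K1, both times, chr17:34140551-34140611, minus strand: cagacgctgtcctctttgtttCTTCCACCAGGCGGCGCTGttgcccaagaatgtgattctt
H2-Q2, ZT0 only, chr17:35432928-35432988, plus strand: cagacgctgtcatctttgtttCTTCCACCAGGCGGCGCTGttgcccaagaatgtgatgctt
H2-Q8, both times, chr17:35526906-35526966, plus strand: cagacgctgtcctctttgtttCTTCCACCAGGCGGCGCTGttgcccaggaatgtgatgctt
H2-Q6, both times, chr17:35557585-35557645, plus strand: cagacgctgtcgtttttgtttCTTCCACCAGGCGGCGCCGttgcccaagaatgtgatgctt
H2-Q7, both times, chr17:35571958-35572018, plus strand: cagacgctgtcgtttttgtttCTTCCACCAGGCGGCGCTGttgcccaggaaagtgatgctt
H2-Q10, ZT0 only, chr17:35602792-35602852, plus strand: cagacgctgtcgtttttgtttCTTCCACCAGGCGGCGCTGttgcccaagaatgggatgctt
In the whole reference genome, on both strands, the 19 bases CTTCCACCAGGCGGCGCTG occurred 6 times, all on chromosome 17 at these positions. All 6 were in a ZT0 site and 4 in a ZT12 site. Of the 7 positions, 5 were listed at both times and 2, at H2-Q2 and H2-Q10, at ZT0 only, although the match at both was the identical 19 bases.

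A further 3 positions resembled each other in the same way. They were the outer site next to H2-K2, the site beyond the end of H2-D1 and the site with the highest motif score near H2-Q2, and their 3 pairs aligned over 292 to 301 bp with an identity of 93.0% to 94.6%. All 3 were listed at both times. Their matches are again in capitals.
H2-K2 outer site, chr17:34105603-34105663, plus strand: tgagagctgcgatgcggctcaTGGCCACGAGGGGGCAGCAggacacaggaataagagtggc
beyond H2-D1, chr17:35411868-35411928, minus strand: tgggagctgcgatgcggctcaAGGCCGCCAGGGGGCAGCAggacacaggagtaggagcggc
near H2-Q2, chr17:35439085-35439145, minus strand: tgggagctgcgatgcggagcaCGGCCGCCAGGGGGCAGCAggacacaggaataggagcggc

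The third class I stretch, over 984 kb from H2-T24 to H2-M5, held 18 genes. Over the 1.03 Mb of these genes extended by 50 kb, it had 7 ZT0 sites (6.80 per Mb) and 9 ZT12 sites (8.74 per Mb). At each time 6 were shared: 85.7% of the ZT0 sites (interval 48.7 to 97.4) and 66.7% of the ZT12 sites (interval 35.4 to 87.9). It was the only stretch with more sites at ZT12 than at ZT0, by 2 sites. The T genes encode nonclassical class I molecules. Qa-1, the product of H2-T23, is read by an inhibitory receptor of natural killer cells, and the products of H2-T22 and H2-T10 are read by gamma delta T cells.

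Sites were found throughout the T genes, 6 at ZT0 and 7 at ZT12, and all 7 entries of this group, H2-Bl included, were within 50 kb of a site at both times. The proximal outer site, chr17:36130508-36130948 at ZT0, lay over the end of Gm20508 with its midpoint between that gene and A930015D03Rik, 0.67 kb from a start of the latter, and scored 22.3. A neighbouring site listed at both times lay in an exon of the noncoding gene Gm17414 8.32 kb from H2-T24. H2-T23 was the only class I gene with a site in its body, at chr17:36168711-36169002 at ZT0 and chr17:36168690-36168913 at ZT12, in a coding exon and 0.944 kb downstream of the gene start at ZT0. It was also the only position of the 34 with no motif match, with a best score of 6.21.

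Near H2-T22 a site at chr17:36172261-36172585 was listed at ZT12 only, in an intron of the long annotated gene BC023719, with H2-T23 on its left. Near H2-T10 a site at chr17:36251285-36251546, in an intron of the same gene, was listed at both times. It had the highest motif score of the stretch, 22.8. These positions resembled each other with an identity of 98.3% over 300 bp, so that a position listed at ZT12 only had a near-identical position listed at both times.
H2-T22, ZT12 only, chr17:36172432-36172492, minus strand: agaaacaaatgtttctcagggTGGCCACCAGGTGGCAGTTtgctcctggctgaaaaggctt
H2-T10, both times, chr17:36251384-36251444, minus strand: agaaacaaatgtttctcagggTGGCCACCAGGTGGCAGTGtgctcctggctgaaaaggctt
A further ZT12-only site lay 4.84 kb from H2-T10 at chr17:36247602-36247985, in an exon of the annotated pseudogene C920025E04Rik, with a score of 11.4. When whole positions were compared, part of it aligned with the position in H2-T23, listed at both times, over 296 bp with an identity of 95.9%.

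A site in the same long gene near H2-Bl, chr17:36197817-36198054, was the only ZT0-only site among the T genes. It resembled the site upstream of H2-T3, chr17:36330512-36330826, with an identity of 91.3% over 299 bp. The H2-T3 site lay between H2-T3 and Gm4246, 3.44 kb upstream of the H2-T3 start at ZT0, and was listed at both times. H2-T3 encodes the thymus leukaemia antigen, known from intestinal epithelium.
H2-Bl, ZT0 only, chr17:36197947-36198007, minus strand: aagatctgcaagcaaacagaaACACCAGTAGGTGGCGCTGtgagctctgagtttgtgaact
H2-T3, both times, chr17:36330664-36330724, minus strand: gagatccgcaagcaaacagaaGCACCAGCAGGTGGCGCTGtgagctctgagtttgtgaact
With 301 bp around each match, 14 of the 34 positions fell into 4 such groups of like sequence. With the whole listed extent of each position given to the local alignment, 16 fell into 5 groups, the added pair being that of H2-T23 and the ZT12-only site near H2-T10. All 16 were at class I genes, and no class II position was among them.

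The M genes were nearly free of sites. Among the 13 M entries, which include the H2-M10 genes known from the vomeronasal organ and H2-M3, whose product presents formylated bacterial peptides, only H2-M10.4 was within 50 kb of a site at both times. That site was chr17:36555397-36555652 at ZT0, between Gm4256 and Gm9612 and 40.2 kb from the H2-M10.4 body, and was the distal outer ZT0 site of the stretch. H2-M6-ps and H2-M5 were within reach at ZT12 only, through the site chr17:37134006-37134245, between CR956641.1 and Zfp57 and 7.64 kb upstream of the H2-M5 start. It was the distal outer ZT12 site. The remaining 10 entries, H2-M10.2, H2-M10.1, H2-M10.3, H2-M11, H2-M9, H2-M1, H2-M10.5, H2-M10.6, H2-M3 and H2-M2, had no site within 50 kb at either time. Their body was 50.04 kb from the nearest ZT0 site for H2-M10.3, which missed the limit by a small margin, and up to 277 kb for H2-M2. The last 2 positions of the stretch lay 579 kb apart. The extended M genes covered 0.958 Mb with 1.04 ZT0 sites and 2.09 ZT12 sites per Mb, beneath the 5.14 and 3.6 per Mb of chromosome 17 as a whole.

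Measured from each site to its nearest H2- gene, the limit of 50 kb lay in a gap of the distances, though H2-M10.3 missed it narrowly. The sites farthest inside it were 47.6 kb from H2-Ke2 and 40.2 kb from H2-M10.4 at ZT0. The nearest outside were 53.9 kb from H2-M6-ps and 59.9 kb from H2-Q10, both listed at both times, and 60.4 kb from H2-M5, listed at ZT0 only.

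By their midpoints, of the 30 ZT0 sites 19 lay between genes, 5 in introns, 1 in a coding exon, 3 in exons annotated as untranslated and 2 in exons of genes without coding sequence. Of the 27 ZT12 sites, the numbers were 17, 5, 1, 2 and 2 in the same order. A site lay in the body of an H2- gene in 3 cases at each time, among them H2-DMa and H2-T23 at both and H2-Ob at ZT12. Within 1 kb of an annotated transcript start of an H2- gene there were 2 sites at each time, those of H2-DMa and H2-T23. The median distance from the start of an H2- gene to the nearest site was 15.9 kb at ZT0 and 17.9 kb at ZT12. It was 4.34 and 7.38 kb for the D and Q genes, 10.8 and 7.27 kb for the T genes with H2-Bl, 9.98 and 15.4 kb for the class II genes and 92.8 and 92.5 kb for the M genes.

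Among the 23 shared pairs of sites, 16 (69.6%) were narrower at ZT12 and 7 were wider. Over all 5665 pairs of the lists in which each site met 1 partner, 71.2% were narrower at ZT12, so the MHC pairs were near the share of the whole lists. The median change in width from ZT0 to ZT12 was -65 bp around the H2- genes and -47 bp over all pairs. The width of a called peak depends on depth, which is not known for either list, and the part of depth in these widths was not tested. Sites listed at ZT0 only had a median width of 306 bp (lowest 238, highest 536), beside 360 bp (256 to 644) for shared ZT0 sites. Sites listed at ZT12 only had a median of 286 bp (240 to 384), beside 283 bp (212 to 524) for shared ZT12 sites. Sites of each kind around the H2- genes thus overlapped in width. Over all listed sites the median was 277 bp for ZT0-only sites and 346 bp for shared ZT0 sites. At ZT12 it was 250 bp for ZT12-only sites and 293 bp for shared sites.

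The CTCF motif had a match in 29 of 30 sites at ZT0 (96.7%, interval 83.3 to 99.4) and in 26 of 27 at ZT12 (96.3%, interval 81.7 to 99.3). Over all listed sites the shares were 97.2% and 97.5%. The labels of both lists mention FIMO, a program that scans sequence for motifs. The lists may thus have been filtered for the motif before they were deposited, a step the sources used here do not describe, and a high share may have been built into them. Sequence of the same length 5 kb away from the sites held a match in 4 of 30 and 1 of 27 cases, beside 10.2% and 9.34% over all sites. The 9 bases AGGGGGCGC, from which the matrix was started, occurred on either strand in 1 MHC site at each time (3.33% and 3.70%), beside 10.1% and 10.7% of all sites. The median best score was 16.7 bits at ZT0 and 16.6 at ZT12, beside 17.3 and 17.5 over all sites. The median GC content was 52.9% and 54.1%, beside 52.1% and 52.3%.

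The direction of the match was read at neighbouring sites up to 200 kb apart, since CTCF sites at the bases of a loop tend to point toward each other. Of 25 neighbouring pairs at ZT0, 5 pointed toward each other, 6 away from each other and 14 (56.0%) the same way. Of 21 pairs at ZT12 the numbers were 5, 6 and 10 (47.6%). Over all listed sites 47.8% of 7318 ZT0 pairs and 47.6% of 4286 ZT12 pairs pointed the same way. By position, the match was on the plus strand at 8 of 12 positions of the D and Q stretch and on the minus strand at 8 of the 9 positions with a match in the stretch from H2-T24 to H2-M5. The proximal pair, at H2-DMa and near H2-DMb1, pointed distally, and the sites in Tap2 and upstream of H2-Ob pointed back toward them. The lists hold no contacts, so whether any pair formed a loop was not tested.

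Some class I genes are near copies of each other, and only reads with a mapping quality of at least 30 were kept. The share of sequence that a read can be placed on was therefore measured. In the stretch from H2-D1 to H2-Q10, 59.6% of windows of 50 bp occurred once in the reference genome, beside 88.3% on chromosome 17. The share was 89.8% from H2-K2 to H2-K1, 91.8% in the class II stretch, 90.5% in the class III stretch and 80.6% from H2-T24 to H2-M5. The median over gene bodies was 83.2% for class I and 97.3% for class II. The lowest was H2-Q7 with 34.9%, followed by H2-Q6 with 43.2%, H2-Q8 with 45.3% and H2-T9 with 47.1%. The bodies of the M genes with no site within 50 kb were mostly unique, from 79.0% for H2-M10.2 to 100% for H2-M11. The 50 kb on either side of each of these genes were not measured separately.

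Among the listed sites themselves, 15 of 30 at ZT0 and 14 of 27 at ZT12 consisted wholly of unique windows. The least unique site was that near H2-T10, with 43.7% of windows unique at ZT0 and 31.4% at ZT12. The H2-Q8 site had 50.4% and 48.0%. Of the sites listed at 1 time only, the H2-T22 site had 50.7%, the other ZT12-only site near H2-T10 68.4%, the ZT0-only sites near H2-Q2 81.7% and 82.9% and the H2-Q10 site 93.7%. The other 3 at class I genes, near H2-D1, H2-Bl and H2-M5, had 100%, as did the 3 class II sites listed at 1 time only. Read length is not given in the sources used here and 50 bp was a choice, and the part of repeated sequence in the counts and in the differences between the lists was not tested.

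Other genes of antigen presentation were read from a list of 27, all found in the annotation. A ZT0 site within 50 kb was listed for 20 (74.1%) and a ZT12 site for 19 (70.4%), beside 49.0% and 39.8% of all genes and 58.2% and 48.1% of protein-coding genes. Since 5 of these genes, Tap1, Tap2, Tapbp, Psmb8 and Psmb9, lie within 50 kb of an H2- gene, they share sites already described. Nlrc5, the transactivator of class I genes, had 3 sites within 50 kb at each time, with 2 in its body. B2m, the light chain of class I molecules, had its nearest site 13.2 kb downstream of the start at ZT0 and 45.4 kb upstream at ZT12. Ciita, the transactivator of class II genes, had a site in its body at ZT0, 41.2 kb downstream of the start, and at ZT12 the nearest was 85.5 kb downstream of the start, beyond the end of the gene. Cd74, the invariant chain that fills the class II groove, had 2 sites within 50 kb at each time. Pdia3 and Nfya were within reach at ZT0 only and Rfx5 at ZT12 only. Tapbpl, Canx, Erap1, Rfxap, Ctss and Mr1 had no site within 50 kb at either time.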

How the data were processed

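CTCF ChIP-seq was made from fixed livers of male C57BL/6 mice at ZT0 and ZT12, with 2 biological replicates at each time. Per the study's methods, reads were aligned to NCBIM37/mm9 with Bowtie2, filtered at a mapping quality of 30 with SAMtools, freed of duplicates and passed to MACS2 with default settings. The deposited lists give chromosome, start and end for each time point, with the replicates combined in a way not given in the sources used here. They hold no counts, so depth is unknown.

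From these lists, sites were assigned to H2- genes of the GENCODE annotation of the same build (gene body and 50 kb), and all peak ends lay within the chromosomes of the reference. A new stretch of genes began where the class changed or neighbouring gene bodies lay over 200 kb apart, and a site was given to the stretch of its nearest H2- gene. Sites per Mb of a stretch of H2- genes were taken over its gene bodies extended by 50 kb, and those of the class III stretch over its own length. Class II comprised the H2-A, H2-E, H2-O and H2-DM genes, and class I the H2-K, H2-D, H2-Q, H2-T and H2-M genes with a number and H2-Bl. Sites were shared when they overlapped by at least 1 bp. The motif matrix came from sites on all chromosomes but 17, started from the 9 bases AGGGGGCGC and refined in 3 rounds, with a threshold of 0.0001 per position under independent bases. Uniqueness was counted for windows of 50 bp on both strands of the reference, over every window of a stretch and 1 in 100 of chromosome 17. The share of repeat-masked bases was not computed because the reference is not masked. Alignments of 301 bp around the match, and later of whole positions, were local and kept from 100 bp. The overlap, motif, interval and window counts were tested on simulated data. Python 3.11.15, NumPy 2.4.6, pysam 0.24.0 and matplotlib 3.10.9 were used.

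Genes were named when they were H2- genes with a site in the body, H2-K1, H2-D1, H2-Aa, H2-Ab1 or H2-Eb1, H2- genes with no site within 50 kb at either time, or the neighbours of a site between genes. Sites were named in full when they lay in an H2- gene or within 1 kb of its start, were listed at 1 time only in the class II stretch, or were outermost or highest in motif score in their stretch. Other names, and the groups of like sequence, were chosen after the values were seen. The position, sequence and motif match of 1 ZT0 site are not reported here, though it is in the counts. The members and lists were chosen with earlier results of these data known.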

Additional observations from a re-analysis of the deposited data

How the results depend on the processing

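No paired analysis was possible because each deposited list covers both replicates with no value for either, and leaving out a replicate was not run for the same reason. Of 67 values under other settings, 53 stayed near the main value, that is within 1.5 times for counts and within the 95% interval for percentages, and 14 moved. Gene bodies alone, with no extension, left 3 sites at ZT0 and 3 at ZT12, of which 2 were shared (66.7% of each list), in 3 genes at each time; the ZT0 percentage stayed within its interval. With an extension of 10 kb, 19 H2- genes had a ZT12 site, beside 32 with 50 kb. A filter on width, by the median of each list, left 17 ZT0 sites and 13 ZT12 sites, of which 7 were shared (41.2% and 53.8%, beside 44.8% and 66.8% of all sites under this filter); here a site needed a wide partner to count as shared. An extension of 100 kb, site midpoints, protein-coding genes only, an overlap of at least 50% of both sites, a distance of up to 500 bp, a stretch limit of 100 kb (8 stretches beside 6) and a motif threshold of 1e-05 moved none of the values computed under them past those limits. After seeing the data, the ZT0 list was also reduced to its widest sites, as many as the ZT12 list has, which left 24 ZT0 sites around the H2- genes, 19 of them shared (79.2%), and 19 of the 27 ZT12 sites shared (70.4%, beside 85.2%), while 66.8% and 66.9% of all sites were; no value moved past those limits. Positions were likewise also compared by local alignment of their whole extent, which gave 16 positions in 5 groups of like sequence, beside 14 in 4. The 95% intervals are wide because each list holds 30 sites or fewer here, and a site listed at 1 time only cannot be told apart from a site that passed the caller's threshold, or a later filter, at 1 time only.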
